A study of Mus musculus with 20 samples.

Results

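Upp1 and 9 further genes of pyrimidine nucleoside salvage (Tymp, Tk1, Tk2, Uck1, Uck2, Cda, Dck, Rrm1 and Rrm2) were examined in mouse skin, as 10 of the 22090 genes of the count table. They were selected by gene symbol, and Upp1 was included because of its large rise in cutaneous squamous cell carcinoma (cSCC), so the cSCC levels of Upp1 are described here without a test. The 9 further genes were also chosen with earlier results of these data known. Their tests may therefore not be fully independent of the data. RNA-seq was performed on 8 normal skin (NS), 8 actinic keratosis (AK, the precursor lesion) and 4 cSCC tissues from female SKH-1 mice, a hairless strain. The mice were 7 months old when they were divided into groups, and the tissues were taken at the end of the irradiation course, when the mice were older. Of the 8 mice, 4 were left without ultraviolet irradiation and 4 were irradiated with simulated sunlight, which contained both UVA and UVB. Per the study's methods, the unirradiated mice gave 1 NS each, and each irradiated mouse gave 1 NS, 1 AK of each of the lower histological grades and 1 cSCC. The labels give neither which NS came from irradiated skin, nor the grade of an AK, nor the mouse of a tissue. NS and AK were therefore each treated as 1 group, and irradiated and unirradiated skin were not compared. The 8 AK stand for 4 mice, tissues from 1 mouse may resemble each other, and the p-values measure the spread between these tissues as if they were independent.

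Pyrimidine nucleotides are either built de novo from glutamine, bicarbonate and aspartate or recovered from free nucleosides. Uridine phosphorylase, the product of Upp1, reversibly splits uridine into uracil and ribose-1-phosphate, and thymidine phosphorylase (Tymp) does the same for thymidine. Uridine-cytidine kinases (Uck1 and Uck2), thymidine kinases (Tk1 in the cytosol, Tk2 in mitochondria) and deoxycytidine kinase (Dck) instead trap nucleosides as monophosphates, cytidine deaminase (Cda) turns cytidine into uridine, and ribonucleotide reductase (Rrm1 and Rrm2) makes deoxyribonucleotides. Tk1 and Rrm2 are known for high expression in the S phase of the cell cycle.

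Depth and composition limited what could be measured. Total counts per sample were between 1624325 and 6295575 in NS, between 867219 and 14055206 in AK and between 775750 and 7095102 in cSCC. Levels are given as CPM, the counts scaled to a common library total with TMM factors across the 20 samples, and 3 counts corresponded to 0.225 CPM in the deepest library and to 3.78 CPM in the shallowest of the AK. The TMM factor was 0.509 in cSCC 18, against 0.852 to 1.22 in the other samples. CPM values of cSCC 18 are thus raised over those from library size alone, and its rank among the samples can rest on that factor. A pair of cSCC libraries stood apart. Markers of heart muscle summed to 55252 CPM in cSCC 21 against 70.8 to 157 CPM in the other cSCC and at most 74.4 CPM in NS and AK, and markers of lung epithelium summed to 36035 CPM in cSCC 20 against at most 54.2 CPM in every other sample. Keratinocyte markers were present in every sample, with sums from 4520 CPM in cSCC 21 to 21165 CPM in an NS. Member levels in cSCC are therefore also compared without cSCC 20 and cSCC 21, and the part of the foreign tissue markers in the cSCC results was not tested. In bulk tissue, fewer cells of a type and less RNA per cell cannot be told apart.

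The sequence just upstream of the Upp1 start is shown because Upp1 had the widest range of levels of the 10 genes, and those of Tk1, Rrm1 and Rrm2 because these genes serve DNA synthesis. RefSeq windows on GRCm38.p6, from 250 bases before to 50 bases after each annotated start, were found for all 10 genes (13 windows), and 3 motifs were searched on both strands: TTNNCGC (a simplified E2F motif), CCAAT (the CCAAT box) and TGANTCA (an AP-1 motif). Capitals mark the matches, and every sequence is written 5′ to 3′ on the strand of its gene. The windows below are chr11:9117758-9118057 on the plus strand for Upp1 (the first of its 3 windows), chr11:117825965-117826264 on the minus strand for Tk1, chr7:102441445-102441744 on the plus strand for Rrm1 and chr12:24708004-24708303 on the plus strand for Rrm2.
Upp1: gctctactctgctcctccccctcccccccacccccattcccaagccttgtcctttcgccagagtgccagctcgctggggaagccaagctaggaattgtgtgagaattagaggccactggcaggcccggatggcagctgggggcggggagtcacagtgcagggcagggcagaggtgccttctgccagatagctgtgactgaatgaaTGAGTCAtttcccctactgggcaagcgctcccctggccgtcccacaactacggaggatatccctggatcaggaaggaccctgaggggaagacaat
Tk1: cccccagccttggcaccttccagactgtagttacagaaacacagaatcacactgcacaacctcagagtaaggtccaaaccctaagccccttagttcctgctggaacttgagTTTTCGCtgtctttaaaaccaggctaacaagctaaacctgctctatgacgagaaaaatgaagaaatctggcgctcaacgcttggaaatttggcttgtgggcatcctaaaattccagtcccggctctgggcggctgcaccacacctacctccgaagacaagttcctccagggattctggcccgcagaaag
Rrm1: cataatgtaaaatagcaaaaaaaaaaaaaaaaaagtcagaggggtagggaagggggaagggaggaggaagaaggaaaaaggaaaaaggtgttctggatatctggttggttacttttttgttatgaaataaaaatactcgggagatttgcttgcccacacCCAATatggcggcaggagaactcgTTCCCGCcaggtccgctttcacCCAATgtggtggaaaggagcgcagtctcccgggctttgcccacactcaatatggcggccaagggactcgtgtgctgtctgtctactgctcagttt
Rrm2: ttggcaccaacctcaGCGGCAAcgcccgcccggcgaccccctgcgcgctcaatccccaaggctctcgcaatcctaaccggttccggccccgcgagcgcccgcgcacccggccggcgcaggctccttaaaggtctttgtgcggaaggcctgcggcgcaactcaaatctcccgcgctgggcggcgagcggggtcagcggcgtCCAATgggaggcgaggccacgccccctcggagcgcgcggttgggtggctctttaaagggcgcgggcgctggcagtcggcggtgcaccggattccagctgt
The AP-1 motif was found for 1 of the 10 genes, Upp1, and was present in 7.81% of all 32851 windows of this length. Its match, TGAGTCA, began 45 bases before the start of the first window's transcript and also lay in the second Upp1 window, which overlaps the first, but not in the third. The E2F motif was found for 3 genes, Tk1, Rrm1 and Rrm2 (20.2% of all windows), and the CCAAT box for 4 genes, Tymp, Uck2, Rrm1 and Rrm2 (37.4% of all windows). The windows shown beside that of Upp1 are thus those of the 3 genes with an E2F match. Windows of Dck and Tk2, which also phosphorylate deoxynucleosides, held no E2F match and are not shown. No match overlapped another. Uck1, Tk2, Cda and Dck held none of the 3 motifs in their windows. These matches describe letters and not binding.

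Upp1 (ENSMUSG00000020407, chromosome 11, 9118103 to 9136170, plus strand, GENCODE M21 on GRCm38) was near the detection limit in NS and among the abundant salvage transcripts in cSCC. In NS, Upp1 ranged from 0.304 to 4.26 CPM with a median of 2.49 CPM, from a sum of 75 counts over the 8 samples. In AK, the lowest level was 2.25, the median 7.86 and the highest 17.98 CPM. The 4 cSCC measured 64.6 CPM in cSCC 18, 528 CPM in cSCC 19, 262 CPM in cSCC 20 and 61.5 CPM in cSCC 21. Every cSCC lay above every AK and NS, while the cSCC differed among themselves by 8.58 times. Over all genes tested, 2.7% lay fully apart with cSCC above NS and 3.33% with cSCC above AK. Upp1 was chosen for its rise in cSCC, so its separation is a description. Mean levels with their SD were 2.29 ± 1.46 CPM for the 8 NS, 8.56 ± 4.70 CPM for the 8 AK and 229 ± 220 CPM for the 4 cSCC.

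The fitted difference of cSCC from NS for Upp1 was 6.68 ± 0.66 on the log2 scale (SE), or 103-fold, and that of cSCC from AK was 4.89 ± 0.58, or 29.7-fold. As Upp1 was chosen for this rise, these values are a description. For all genes, 11.7% of those tested were called higher in cSCC than in NS and 16% higher than in AK. A gene was called when its adjusted p-value was under 0.05 and its fold change above 1.5 or below 0.67. Without cSCC 20 and cSCC 21 the difference of Upp1 from NS was 7.04, and without cSCC 19, the highest, it was 5.87. In cSCC 18 and cSCC 19, summed heart muscle markers were at 70.8 and 102 CPM, against at most 43.8 CPM in NS. The place of cSCC 18 above NS there rests on its TMM factor of 0.509.

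**Figure D1:**
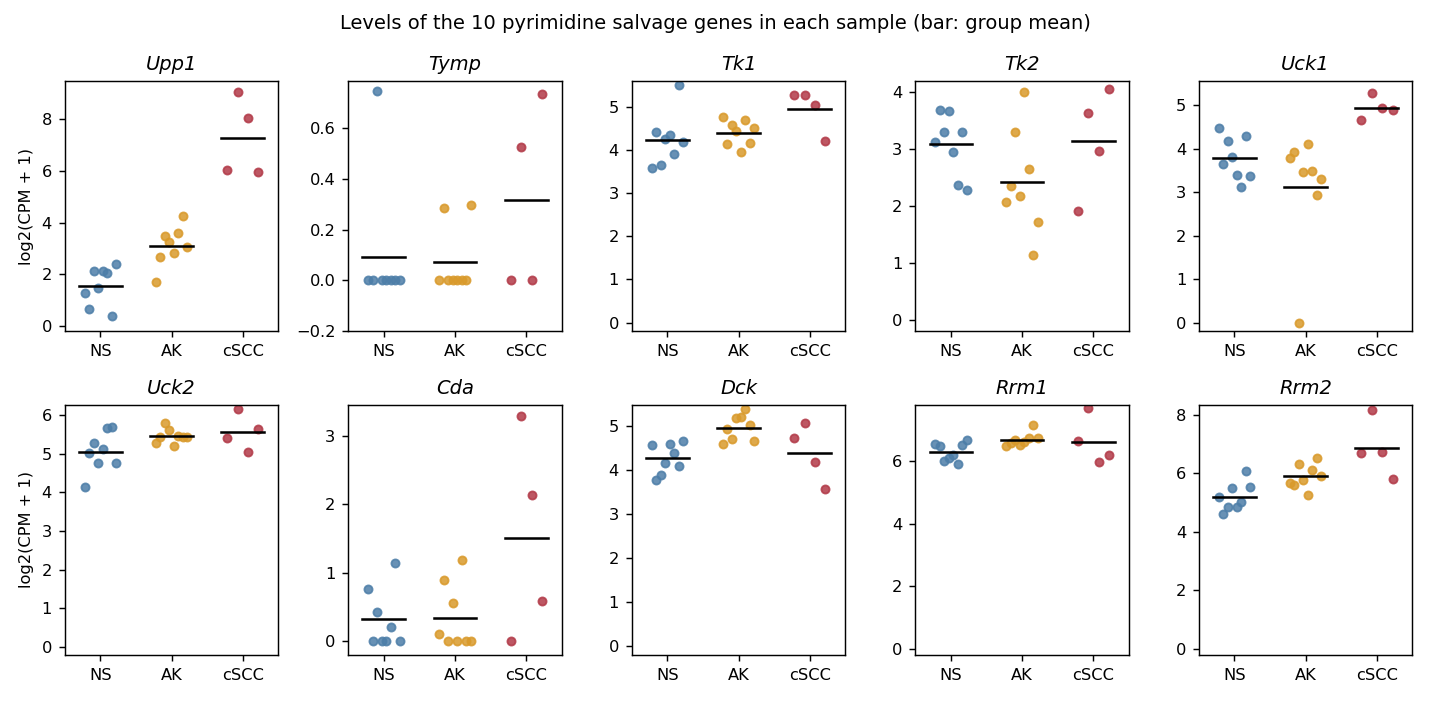
Level of each of the 10 genes in every sample, as log2(CPM + 1) on the vertical axis, for NS, AK and cSCC; points are samples and bars are group means. Upp1, chosen for its rise in cSCC, separated the 4 cSCC from all other samples (61.5 to 528 CPM against at most 17.98 CPM). Uck1 did so with a narrower gap that rests on the TMM factor of cSCC 18, and Tymp was near 0 throughout.

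In AK, Upp1 rose 3.61-fold over NS (log2 fold change 1.85 ± 0.48 (SE), adjusted p = 0.0336). Upp1 was chosen for its rise in cSCC, judged against the same NS samples and perhaps also against these AK. The comparison of AK with NS is therefore not fully independent of that choice. Of the 8 AK, 7 lay above the highest NS, and AK 10 lay within the NS range at 2.25 CPM. Over all genes tested between AK and NS, 2.26% were called higher and 2.38% lower. The call was lost when any of 8 of the 16 samples was left out (NS 1, 2, 4 or 5, or AK 12, 13, 15 or 16). Over all 16 such runs, log2 fold changes were from 1.61 to 2.05 and adjusted p-values from 0.016 to 0.0685. In the 8 runs that lost the call, only 87 to 162 of all genes were called higher, against 264 with every sample. The Upp1 call was also lost with voom weights (1.64, adjusted p = 0.0616), where 521 genes were called higher. It was lost too when all 20 samples shared 1 estimate of the spread (1.83, adjusted p = 0.124), where 5 of 12847 genes were called higher.

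Per length of transcript, the order of the 10 genes changed between the groups. On the scale of mean CPM per kilobase of exons, Upp1 stood at 1.17 in NS, below 7 of the 9 other genes, at 4.37 in AK and at 117 in cSCC. Rrm2 led in NS with 13.7 and in AK with 21.95, and measured 49.5 in cSCC. In NS the next levels were 7.21 for Rrm1, 6.22 for Uck2, 4.94 for Dck, 4.90 for Uck1, 3.73 for Tk1 and 2.23 for Tk2. In cSCC they were 10.97 for Uck1, 10.03 for Rrm1, 8.82 for Uck2, 5.99 for Tk1 and 5.70 for Dck. In cSCC each of these last levels differed from the next by less than the SD of the higher one. The mean of 117 for Upp1 rested on cSCC 19, without which it was 65.9. In cSCC 18, Rrm2 at 36.8 per kilobase was above Upp1 at 32.9. Exon lengths were those of the union of annotated transcripts, which overstates the length of any 1 transcript, by amounts that may differ between genes. The union was 11012 bases for Rrm1 against 2771 for Rrm2 and 1961 for Upp1. The order on this scale, above all the place of Rrm1, therefore depends on these lengths. In CPM, Rrm1 was above Rrm2 in NS and AK.

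The other phosphorylase and the deaminase were scarcely detected. Tymp, which lies on chromosome 15 (89371931 to 89377039, minus strand), gave 2 counts in all NS, 2 in all AK and 5 in all cSCC. Of its 2037 exonic bases, 1391 are shared with the neighbouring genes Sco2 and Ncaph2, and how such reads were counted is not stated. Cda gave 10 counts over the 8 NS and 15 over the 8 AK, with no sample above 1.28 CPM. In cSCC, Cda was at 0 in cSCC 18, 8.79 CPM in cSCC 19 (20 counts), 3.41 CPM in cSCC 20 and 0.496 CPM in cSCC 21. Neither gene passed the filter on low counts, so neither was tested and no fold change is given.

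Uck1 and Uck2 encode kinases that add the first phosphate to uridine and cytidine. Uck1 rose in cSCC. It ranged from 7.66 to 21.1 CPM in NS with a median of 12.3 CPM, and from 0 to 16.3 CPM in AK with a median of 10.1 CPM. The cSCC measured 24.3, 38.2, 29.6 and 28.6 CPM (cSCC 18 to 21), with the highest 1.57 times the lowest, the smallest such ratio among the tested members. All 4 were above all NS and all AK with TMM factors. This separation and the narrow cSCC range rest on the factor of cSCC 18 (0.509). cSCC 18 held 35 Uck1 counts of 2830894 in total, against 120 of 4672951 in NS 1 and 65 of 4328547 in AK 11. As shares of library totals, cSCC 18 was below both. The log2 fold change was 1.22 ± 0.31 (SE) from NS (2.33-fold, adjusted p = 0.0164) and 1.69 ± 0.46 from AK (3.22-fold, adjusted p = 0.0178). Over all genes tested, groups lay fully apart with cSCC higher for 2.7% against NS and for 3.33% against AK. With cSCC 20 and cSCC 21 left out, the differences were of like size, 1.24 (adjusted p = 0.0529) and 1.68 (adjusted p = 0.0563), but missed the threshold. With cSCC 19 left out, the difference of Uck1 from NS was 1.08 (adjusted p = 0.0525), and with library size alone the calls against NS (0.95, adjusted p = 0.116) and AK (1.49, adjusted p = 0.0559) were lost. From NS to AK, Uck1 gave -0.41 (adjusted p = 0.488), and AK 12, the shallowest AK library, held no Uck1 count.

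Uck2 was not called in any comparison. It ranged from 16.7 to 50.5 CPM in NS (median 32.7) and from 35.9 to 54.2 CPM in AK (median 42.2), and the cSCC measured 41.7, 70.7, 31.9 and 48.5 CPM. The log2 fold changes were 0.32 in AK over NS (adjusted p = 0.315), 0.57 in cSCC over NS (adjusted p = 0.214) and 0.30 in cSCC over AK (adjusted p = 0.372). Without cSCC 20 and cSCC 21 the cSCC differences of Uck2 were 0.76 and 0.47, neither called.

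The balance of both kinases within each sample was compared as log2((CPM + 1)/(CPM + 1)). Uck2 over Uck1 averaged 1.27 ± 0.80 in NS (SD, n = 8), 2.33 ± 1.47 in AK (n = 8) and 0.62 ± 0.35 in cSCC (n = 4). The 4 cSCC, from 0.10 to 0.87, all lay below the 8 AK, from 1.09 to 5.79. In an exact two-sided permutation test the difference was -1.71 (p = 0.0222), which missed the threshold after adjustment over the 12 ratio tests made (adjusted p = 0.0667). The highest AK value was that of AK 12, and without it the difference was -1.22 with an adjusted p of 0.0182 (exact permutation test). Uck2 over Uck1 did not pass in AK over NS (1.06, adjusted p = 0.123) or in cSCC over NS (-0.65, adjusted p = 0.218), both by exact permutation.

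Dck, which phosphorylates deoxycytidine and also the purine deoxynucleosides, rose in AK. Its NS levels ran from 12.7 to 24.3 CPM (median 18.3) and its AK levels from 23.1 to 41.1 CPM (median 30.7), with 7 of the 8 AK above the highest NS. The log2 fold change was 0.71 ± 0.18 (SE; 1.64-fold, adjusted p = 0.0336). Upp1, chosen for its rise in cSCC, and Dck were the 2 of 8 tested members called higher in AK, and none was called lower. Over all genes tested, 2.26% were called higher and 2.38% lower. The median log2 fold change of the tested members was 0.34 against -0.04 for all genes. Both the count and this median include Upp1, whose choice was not fully independent of these NS. Dck was the only other member called, and the count was not tested against these shares. The Dck call was lost without 7 of the 16 samples in turn (NS 2, 4 or 5, or AK 13, 14, 15 or 16). It was also lost with library size alone (0.62, adjusted p = 0.063) and in the fit of all 20 samples (0.72, adjusted p = 0.146). Over all 16 runs that left out 1 sample, log2 fold changes were 0.64 to 0.77 and adjusted p-values 0.0216 to 0.0714. In the 7 runs that lost the Dck call, 87 to 193 of all genes were called higher, against 264 with every sample. In cSCC, Dck measured 25.7, 32.5, 17.1 and 10.9 CPM, with cSCC 21 below every NS. The differences were 0.25 from NS (adjusted p = 0.617) and -0.42 from AK (adjusted p = 0.321), and without cSCC 20 and cSCC 21 they were 0.67 and -0.012, neither called.

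Tk1 and Tk2 phosphorylate thymidine in the cytosol and in mitochondria, and neither was called. Tk1 ranged from 10.9 to 44.1 CPM in NS (median 17.5) and from 14.5 to 26.0 CPM in AK (median 21.1), and the cSCC measured 37.5, 37.8, 31.9 and 17.4 CPM. Its cSCC levels were above all AK in 3 of 4 samples, cSCC 21 being the exception. For cSCC 18 this rests on its TMM factor of 0.509. As a share of library totals, Tk1 was lower in cSCC 18 (54 counts of 2830894) than in AK 10 (347 of 14055206). The log2 fold change over AK was 0.71 ± 0.27 (SE, adjusted p = 0.0654), and without cSCC 20 and cSCC 21 it was 0.95 (adjusted p = 0.0379). Over NS it was 0.74 ± 0.37 (adjusted p = 0.179), and from NS to AK 0.07 ± 0.26 (adjusted p = 0.896). Tk2 was the lowest of the tested kinases, with medians of 8.28 CPM in NS and 3.81 CPM in AK and cSCC values of 2.78, 11.4, 6.83 and 15.5 CPM. Its log2 fold changes were -0.60 in AK over NS (adjusted p = 0.389), 0.31 in cSCC over NS (adjusted p = 0.678) and 0.97 in cSCC over AK (adjusted p = 0.261). Without cSCC 20 and cSCC 21 the cSCC differences of Tk2 were -0.090 and 0.54, neither called.

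Rrm2, the small subunit of ribonucleotide reductase that carries the tyrosyl radical, rose in cSCC. NS ranged from 23.5 to 67.0 CPM (median 33.5) and AK from 37.1 to 91.7 CPM (median 56.3). The cSCC measured 102 CPM in cSCC 18, 286 CPM in cSCC 19, 106 CPM in cSCC 20 and 55.1 CPM in cSCC 21. In 3 of the 4 cSCC the level was above every NS and AK, and cSCC 21 lay within both ranges. The place of cSCC 18 rests on its TMM factor of 0.509. It held 147 Rrm2 counts of 2830894 in total, against 220 of 3318488 in NS 8 and 63 of 867219 in AK 12. As shares of library totals, cSCC 18 was below both. The log2 fold change was 1.91 ± 0.37 (SE) over NS (3.75-fold, adjusted p = 0.0048) and 1.28 ± 0.35 over AK (2.43-fold, adjusted p = 0.0184). Without cSCC 20 and cSCC 21 both were larger, 2.39 (adjusted p = 0.0031) and 1.77 (adjusted p = 0.0061). Without cSCC 19 they were 1.26 (adjusted p = 0.0211) and 0.63, the latter past the threshold no longer (adjusted p = 0.133), and with library size alone the call of Rrm2 over AK was lost (1.18, adjusted p = 0.0658). From NS to AK, Rrm2 gave 0.66 ± 0.22 and did not pass (adjusted p = 0.0788).

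Uck1 and Rrm2 were the 2 of 7 tested members, Upp1 aside, that were called higher in cSCC, both against NS and against AK (background 11.7% and 16% of all genes), and these comparisons share the cSCC samples. None was called lower (background 7.65% and 8.34%), and with 7 genes tested these counts are too small to be set apart from the background shares. The median log2 fold change of the tested members was 0.57 over NS and 0.71 over AK, against 0.14 and 0.17 for all genes tested. With library size alone the medians of all genes moved to -0.17 and -0.09. Relative to the median of all genes, Uck1 over NS was 1.08 with TMM factors and 1.12 with library size alone, and Rrm2 was 1.76 and 1.92, although with library size alone Uck1 was not called over either group and Rrm2 was called over NS alone.

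**Figure D2:**
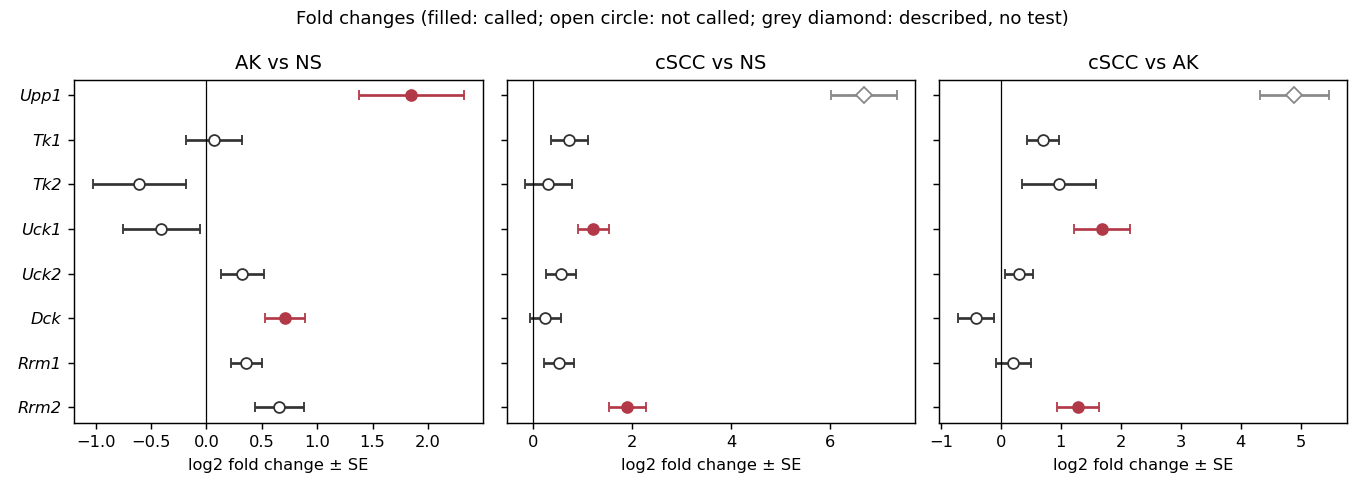
Log2 fold change with its SE (horizontal axis, which differs between panels) of each tested member in AK over NS, cSCC over NS and cSCC over AK. Filled points were called, open points were not, and grey diamonds mark Upp1 in the cSCC comparisons, described without a test; Upp1 and Dck were called in AK, Uck1 and Rrm2 in cSCC.

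Rrm1, the large catalytic subunit, was the most abundant member in CPM in NS and AK and was not called in any comparison of all samples. It ranged from 59.3 to 101 CPM in NS (median 81.1) and from 89.2 to 141 CPM in AK (median 99.3), and the cSCC measured 98.6, 210, 61.4 and 72.1 CPM. Only cSCC 19 lay above all AK. The log2 fold changes were 0.36 in AK over NS (adjusted p = 0.127), 0.53 in cSCC over NS (adjusted p = 0.231) and 0.21 in cSCC over AK (adjusted p = 0.627). Without cSCC 20 and cSCC 21, Rrm1 was called over NS (0.99, adjusted p = 0.0418) but not over AK (0.66, adjusted p = 0.118).

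The subunits therefore shifted relative to each other. Rrm2 over Rrm1 within a sample averaged -1.10 ± 0.47 on the log2 scale in NS (SD, n = 8), -0.79 ± 0.30 in AK (n = 8) and 0.22 ± 0.50 in cSCC (n = 4). The cSCC values were 0.05, 0.44, 0.77 and -0.38, and the lowest of them, that of cSCC 21, was just above the highest NS at -0.42. By exact two-sided permutation the difference of cSCC from NS was 1.32 (p = 0.0020, the smallest these group sizes can give, adjusted p = 0.0121) and that from AK was 1.01 (p = 0.0040, adjusted p = 0.0162). With cSCC 20 and cSCC 21 left out they were 1.35 and 1.04, each with an adjusted p of 0.0533 in an exact permutation test of 2 against 8 samples, whose smallest unadjusted p is 0.0222. AK and NS differed by 0.31 (exact permutation, adjusted p = 0.208).

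Rrm2 was also compared with Rrm2b, the alternative small subunit that p53 induces and that serves DNA repair and mitochondria outside S phase. Rrm2 over Rrm2b averaged 1.49 ± 0.41 in NS (SD, n = 8) and 2.38 ± 0.66 in AK (n = 8), a difference of 0.89 (exact permutation, adjusted p = 0.0121). In cSCC the values were 3.97, 4.94, 2.39 and 0.44, from above every AK to below every NS. The differences of cSCC did not pass, at 1.45 over NS (exact permutation, adjusted p = 0.123) and 0.56 over AK (exact permutation, adjusted p = 0.507). Without cSCC 21 the difference from NS was 2.28 (exact permutation, adjusted p = 0.0182). Tk1 over Tk2 did not pass in any comparison.

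**Figure D3:**
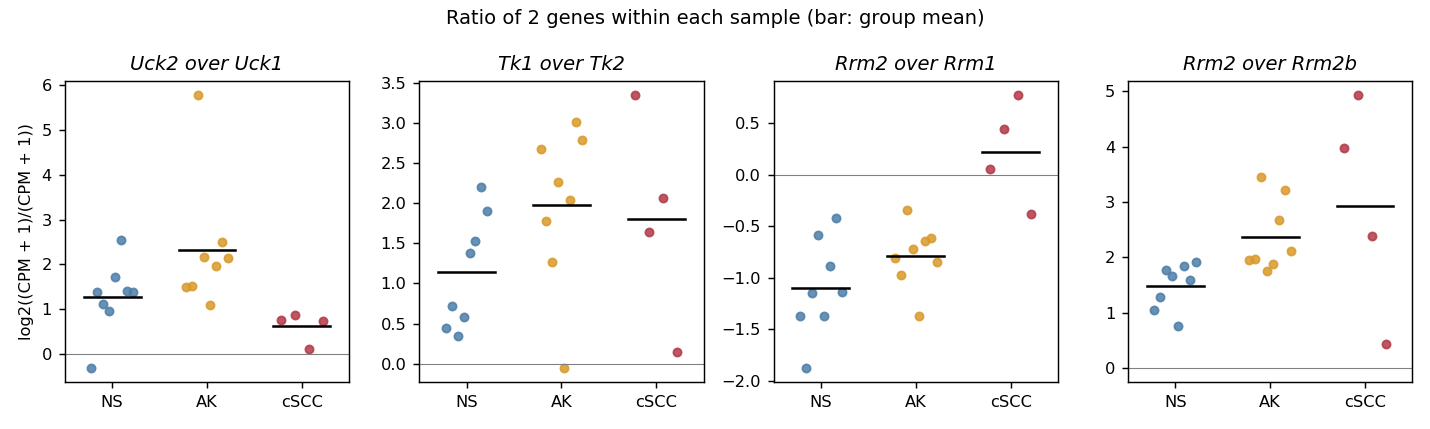
Log2 ratio of CPM + 1 (vertical axis) of the named pair of genes within each sample, for NS, AK and cSCC, with bars at group means. Rrm2 over Rrm1 in cSCC (-0.38 to 0.77) lay above all NS, and Uck2 over Uck1 in cSCC (0.10 to 0.87) lay below all AK.

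The cSCC differed among themselves. cSCC 19 held the highest cSCC level of 8 of the 10 members, and cSCC 21 that of the other 2, Tymp and Tk2. cSCC 21 held the lowest cSCC level of Upp1, Tk1, Dck and Rrm2. Markers of proliferation (16 genes) summed to 1229, 1370, 620 and 422 CPM in cSCC 18 to 21, against 587 to 1283 CPM in NS and 791 to 1516 CPM in AK. Of those 16 genes, 2 were called higher in AK than in NS (Pcna and Ccna2), 2 were called higher in cSCC than in NS (Mcm3 and Plk1), and against AK Plk1 was called higher and Pcna lower. Over all genes tested, 2.26% were called higher in AK than in NS. In cSCC, 11.7% were called higher and 7.65% lower than in NS, and 16% higher and 8.34% lower than in AK. These shares are the background of every marker count in this paragraph. The part of the proliferation markers in the levels of Rrm2 and Tk1 was not tested. Summed neutrophil markers (10 genes) ranged from 90.5 to 5996 CPM in NS, from 636 to 3151 CPM in AK and from 2662 to 14766 CPM in cSCC, with 2 of the 10 called higher in cSCC than in NS. S100a8 and S100a9, which stressed keratinocytes also express, made up most of that sum in cSCC. Csf3r and Cxcr2, receptors of neutrophils, were the pair called over NS, with Csf3r at 17.4, 26.8, 10.2 and 31.8 CPM and Cxcr2 at 33.3, 95.4, 69.4 and 31.6 CPM in cSCC 18 to 21, whereas Mpo was at 0 in cSCC 19 and cSCC 20. Macrophage markers in cSCC (833 to 7427 CPM) spanned the NS range (1404 to 4950 CPM), with 3 of 9 called higher, and endothelial markers ran from 108 to 565 CPM in cSCC against 33.2 to 110 CPM in NS, with 6 of 7 called higher. The endothelial sums were 108 and 119 CPM in cSCC 18 and cSCC 19, near the highest NS, and 239 and 565 CPM in cSCC 20 and cSCC 21, the libraries with lung and heart markers. T cell markers summed to 6.28 to 39.8 CPM in cSCC, below every NS (54.8 to 202 CPM) but overlapping AK (27.0 to 153 CPM). Of the 4 T cell markers tested, 1 was called lower in cSCC than in NS. Of the 7 keratinocyte markers, 2 were called lower in cSCC than in NS and 3 lower than in AK, among them Krt1 and Krt10, keratins of differentiated layers, at -3.46 and -4.04 over NS on the log2 scale. None of the 7 was called higher. Krt14 was above every NS in cSCC 18 and cSCC 19 (14100 and 13516 CPM), and at 4115 and 2917 CPM in cSCC 20 and cSCC 21. The place of cSCC 18 there rests on its TMM factor of 0.509. Krt5 was above every NS in cSCC 19 (3141 CPM), and at 651 and 730 CPM in cSCC 20 and cSCC 21. The part of any of these cell types in the level of Upp1 was not tested either.

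Other genes of pyrimidine metabolism were examined from a list of 38, of which 33 were tested in each comparison. In AK, 1 was called higher than in NS and none lower, where 2.26% and 2.38% of all genes were so called. The gene was Samhd1, whose product breaks down deoxynucleotides, with 66.9 ± 43.8 CPM in NS (SD, n = 8) and 168 ± 36.7 CPM in AK (n = 8; log2 fold change 1.31 ± 0.30 (SE), adjusted p = 0.0231). In cSCC, 7 were called higher and 1 lower than in NS, where 11.7% and 7.65% of all genes were so called, with a median log2 fold change of 0.64 over the 33 genes against 0.14 for all genes. Against AK, 12 were called higher and 1 lower, where 16% and 8.34% of all genes were so called, with a median of 0.65 against 0.17.

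De novo synthesis supplied 2 of the genes called over NS. Ctps, CTP synthase, rose from 25.1 ± 5.34 CPM in NS to 63.7 ± 24.8 CPM in cSCC (log2 fold change 1.42, adjusted p = 0.0046), with cSCC values of 31.3, 76.0, 59.2 and 88.5 CPM. Cad, whose product carries out the first steps of the pathway, rose from 7.27 ± 2.30 to 15.4 ± 6.99 CPM (1.16, adjusted p = 0.0436). The Cad call over NS was lost without cSCC 19 (0.82, adjusted p = 0.191), without cSCC 21 (adjusted p = 0.071), without cSCC 20 and cSCC 21 (1.25, adjusted p = 0.096) and with library size alone (adjusted p = 0.184). Umps and Ctps2 were not called (0.71 and 0.59), although Umps was called over NS without cSCC 20 and cSCC 21 (1.04, adjusted p = 0.0231), and Dhodh, the mitochondrial dehydrogenase of the pathway, was called only over AK (2.25, adjusted p = 0.0201), with no count in cSCC 20. In the thymidylate branch, Dut, which removes dUTP, was called over NS (0.98, adjusted p = 0.0345) but not without cSCC 19 (0.66, adjusted p = 0.168) or with library size alone (0.70, adjusted p = 0.191), while Tyms, thymidylate synthase, gave 0.19 (adjusted p = 0.744).

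Among nucleoside handling genes, Slc28a2, a concentrating nucleoside transporter, rose from 3.22 ± 3.53 to 23.9 ± 16.5 CPM between NS and cSCC (2.93, adjusted p = 0.0101). Its highest levels were in cSCC 20 and cSCC 21 (31.9 and 42.0 CPM), and without these the difference was 1.77 (adjusted p = 0.185). Nt5e, the ectonucleotidase CD73 that releases nucleosides outside the cell, was called over NS (1.68, adjusted p = 0.0361), but cSCC 19 held 188 CPM and without it the difference was 0.71 (adjusted p = 0.327). Nt5c3, a pyrimidine-specific 5′-nucleotidase, was the gene that fell, from 364 ± 94.9 CPM in NS to 136 ± 82.3 CPM in cSCC (-1.37, adjusted p = 0.0189), and its call was lost without cSCC 19 (-1.17, adjusted p = 0.0516) and without cSCC 20 and cSCC 21 (-1.15, adjusted p = 0.103). Pgm2, a phosphoglucomutase gene, was called over NS (1.97, adjusted p = 0.0104). The mouse symbols Pgm1 and Pgm2 were exchanged between annotations, RefSeq listing each as an older name of the other, so which of the enzymes either symbol stands for in the deposited table is not known. Its cSCC values were 108, 115, 48.9 and 471 CPM, and without cSCC 21 the difference was 0.90 (adjusted p = 0.074). Uckl1, a uridine kinase-like gene, was called over NS (1.55, adjusted p = 0.0417), but was at 114 CPM in cSCC 21, and without that sample the difference was 0.56 (adjusted p = 0.408). Of the 4 genes of pyrimidine breakdown, Dpyd alone was tested, and it gave -0.19 in cSCC over NS (adjusted p = 0.923).

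Over AK, the genes called higher also included Nme2, Nt5c3b, Pgm1 and Slc29a1, an equilibrative nucleoside transporter. Slc29a1 was at 97.6 CPM in cSCC 21, and without that sample its difference from AK was 0.66 (adjusted p = 0.231). Of the 8 genes called against NS, 4 were still called without cSCC 20 and cSCC 21 (Ctps, Dut, Nt5e and Pgm2), 3 without cSCC 19 and 5 without cSCC 21. Of the 13 called against AK, 7 were still called without cSCC 20 and cSCC 21, 7 without cSCC 19 and 4 without cSCC 21.

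**Figure D4:**
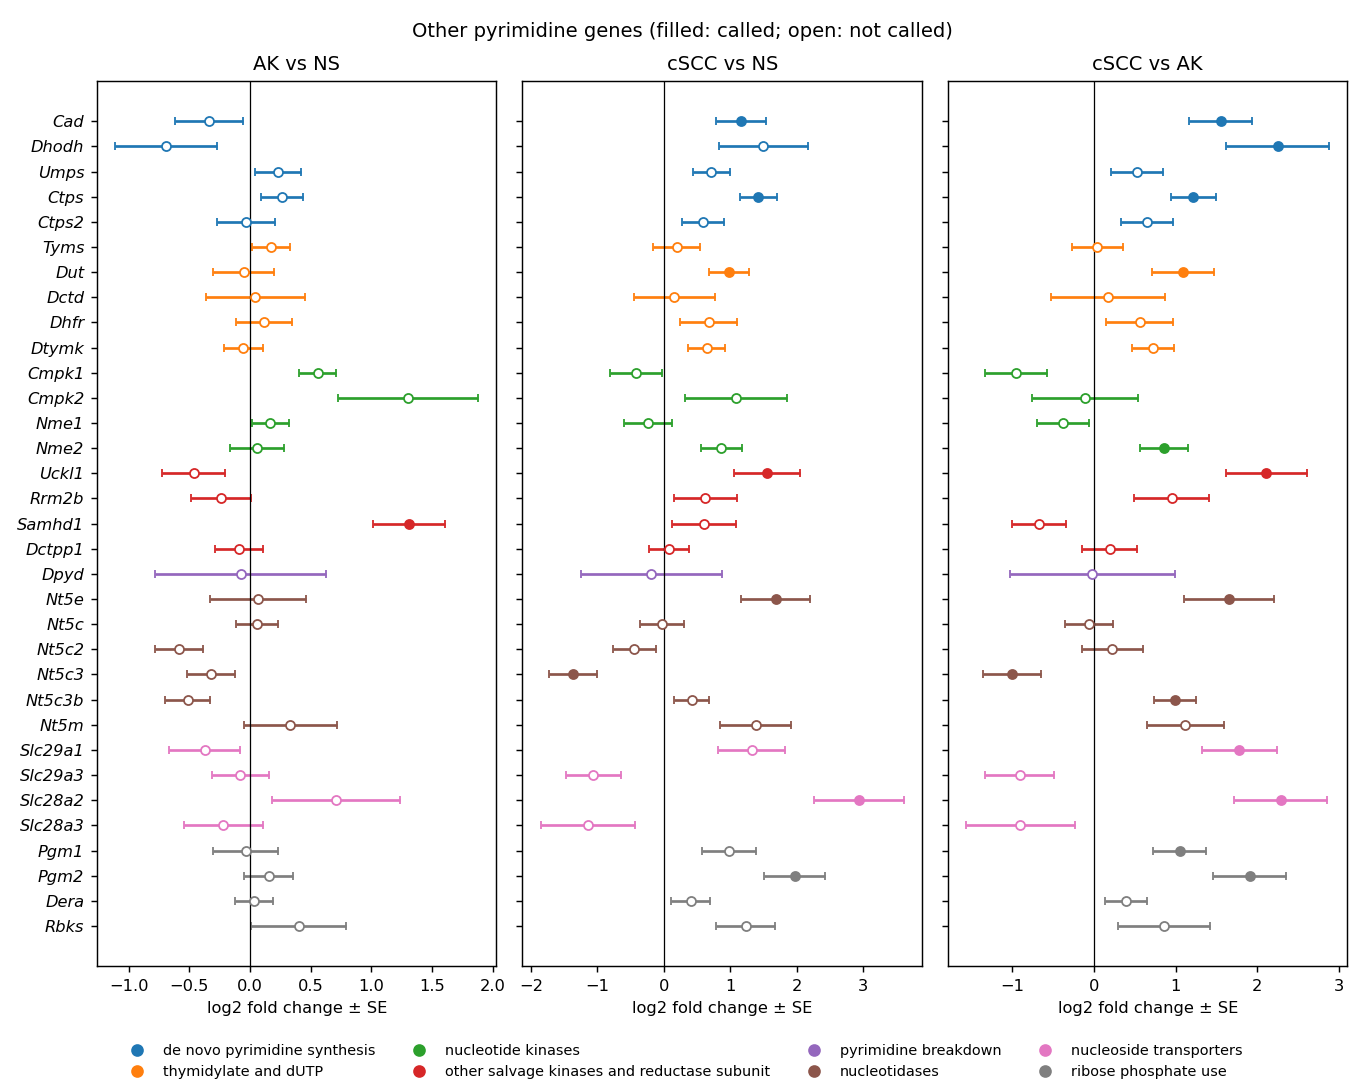
Log2 fold change with its SE (horizontal axis) of the 33 tested other pyrimidine genes, in AK over NS, cSCC over NS and cSCC over AK, grouped by function. Filled points were called and open points were not; 1, 8 and 13 genes were called in the comparisons in that order.

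The genes whose profile was most like that of Upp1 were found by the root mean square (RMS) difference of log2(CPM + 1), centred per gene, over the 20 samples. Among 12846 genes the smallest differences were 0.87 for Cd300lf, a myeloid inhibitory receptor, and 0.90 for Il1b, interleukin 1 beta. Pgf (placental growth factor, 1.09), Trem1 (an activating receptor of neutrophils and monocytes, 1.10), Rnd1 (1.18) and Pthlh (parathyroid hormone-related protein, 1.21) followed, against a median of 2.38 over all genes. This likeness rests mainly on the step to the 4 cSCC and carries no test. Il1b ranged from 5.10 to 31.3 CPM in NS, from 27.7 to 174 CPM in AK and from 149 to 1453 CPM in cSCC, and Cd300lf from 0.675 to 7.02, from 2.97 to 15.4 and from 40.0 to 154 CPM. In Il1b and Pthlh, as in Upp1, the highest AK was AK 16 and the highest cSCC was cSCC 19. Pthlh measured 41.0, 1055, 259 and 84.2 CPM in cSCC 18 to 21. With cSCC 20 and cSCC 21 left out, Cd300lf, Il1b, Pgf and Rnd1 stayed among the first 6, and Samd12 (0.97) and Procr (1.06) replaced Trem1 and Pthlh.

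**Figure D5:**
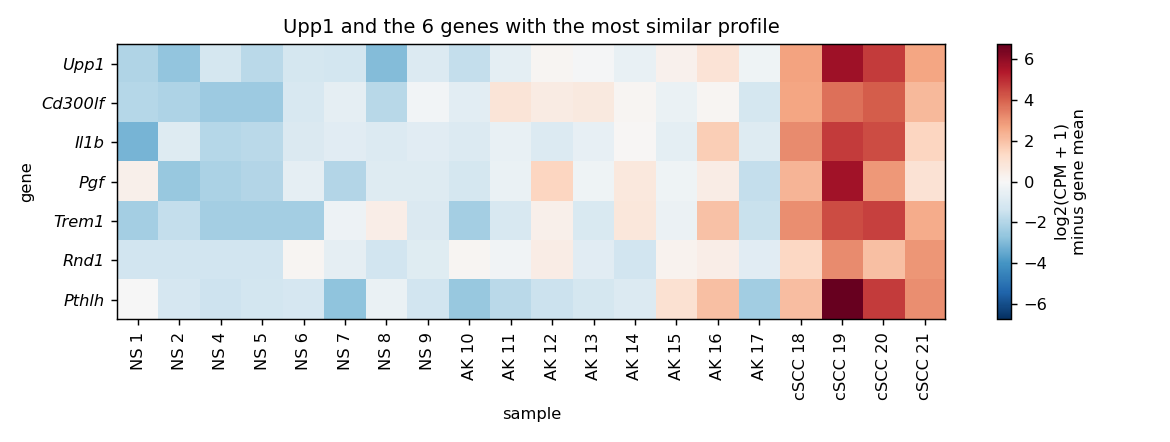
Level of Upp1 and the 6 genes with the most similar profile in each of the 20 samples, as log2(CPM + 1) minus the gene's mean (colour scale). In each row all 4 cSCC lie above the mean of the gene, with cSCC 19 high for Upp1 (528 CPM), Il1b (1453 CPM) and Pthlh (1055 CPM).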

How the data were processed

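Per the paper's methods, read trimming used Trimmomatic, alignment to GRCm38 used HISAT2 and quantification used StringTie. The submitters' processing notes name Trimmomatic 0.36, HISAT2 2.0.5 and featureCounts 1.5.2. The authors deposited raw counts per gene symbol for 22090 genes in 20 samples, without normalization. The sources thus differ on the counting tool, and the notes also list the builds mm9 and hg19 in place of GRCm38. The strand used in counting is not given in the sources used here, so counts of overlapping genes (Tymp above all) are uncertain.

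The members and gene lists were chosen with earlier results of these data known. CPM used TMM factors over the 20 samples. Groups were compared pairwise, without covariates, by edgeR's quasi-likelihood test (edgeR 4.0.16, R 4.3.3) after the filterByExpr filter, and p-values were adjusted by Benjamini-Hochberg over all genes tested. A call needed both an adjusted p-value below 0.05 and a fold outside 0.67 to 1.5, which are the limits the study set on folds, although the study used an unadjusted two-sample test. Within-sample ratios (pseudocount 1 CPM) were compared by exact permutation, adjusted over 12 tests. Named genes were all 10 members, called genes of the list of 38, and the 6 genes most like Upp1; Umps, Ctps2, Tyms, Dpyd, Rrm2b and the marker genes were named beside them as list members. No samples within a group were duplicates (62 pairs, smallest chi-square per degree of freedom 11.3). Floors of 3 counts cover counting error only. Alternatives used DESeq2 1.42.0, limma 3.58.1 (voom), other scalings, filters and thresholds, and leaving samples out. The steps were tested on simulated data with changes of 2 on the log2 scale. Of the changed genes tested, 99.3% were recovered in AK over NS, 45.2% in cSCC over NS and 63.0% in cSCC over AK. Genes not called in cSCC may therefore have changed, and counts of calls in AK and in cSCC are not alike in power. Promoter windows were taken from RefSeq and gene positions from GENCODE M21.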

Additional observations from a re-analysis of the deposited data

Results flagged for a closer look

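Of the 30 sets of values checked (10 genes in each of the 3 groups), 3 held a sample far from the others of its group. The rule flags about 1 in 20 sets of normally distributed values. CPM need not be so distributed, so that rate may not hold here. Tymp was at 0.678 CPM in NS 4, from 2 counts, and at 0 in the other 7 NS, where the rule would flag any level above 0. Tk1 was at 44.1 CPM in NS 8, with the next NS at 20.3 CPM. Rrm1 was at 141 CPM in AK 16, with the next AK at 106 CPM.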

How the results depend on the processing

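No paired analysis was possible because the groups share no replicate numbers. Members called higher in AK over NS (2) became 1 with library size alone, 1 with at least 10 counts in every sample and 0 in the fit of all 20 samples (0 to 3 leaving out each sample). The other pyrimidine genes called higher there (1) became 0 in the fit of all samples, 2 with unadjusted p-values and 2 without a fold limit (0 to 2 leaving out samples), and those called lower (0, with 5 of 33 at an unadjusted p under 0.05 in either direction) became 1 with library size alone, 1 with voom, 2 with at least 10 counts and 1 unadjusted (0 to 2). In cSCC over NS, members called higher (2) became 1 with library size alone (1 to 3 leaving out samples, 1 without cSCC 19). Other pyrimidine genes called higher (7) became 3 with library size alone, 4 with voom, 4 without a filter and 15 unadjusted (3 to 8), and those called lower (1) became 2 in the fit of all samples, 2 unadjusted, 3 with the study's test and 0 without cSCC 20 and 21 (1 to 2). In cSCC over AK, members called higher (2) became 0 with library size alone (1 to 3, with 1 without cSCC 19). Others called higher (12) became 4 with library size alone, 6 with voom, 7 without a filter and 5 with at least 10 counts (5 to 12), and those called lower (1) became 2 with library size alone, 0 with median-of-ratios factors, 2 with DESeq2, 2 with voom, 0 with at least 10 counts, 3 in the fit of all samples, 3 unadjusted, 5 with the study's test and 0 without cSCC 20 and 21 (0 to 5). Changes of sign, all in uncalled values, were Tk1 in AK over NS (-0.0040 with library size alone, -0.0095 with at least 10 counts, -0.021 to 0.36 leaving out samples), Dck in cSCC over NS (-0.038 with library size alone, -0.030 to 0.48), Tk2 in cSCC over NS (-0.090 without cSCC 20 and 21, -0.10 to 0.59) and Rrm1 in cSCC over AK (-0.30 to 0.40). Of the ratios, Tk1 over Tk2 in cSCC over AK became 0.53 without cSCC 20 and 21 (-0.68 to 0.38 leaving out samples), and Rrm2 over Rrm2b ranged from -0.11 to 1.39 over AK and from 0.78 to 2.28 over NS. Rrm2 over Rrm1, at 1.35 over NS and 1.04 over AK without cSCC 20 and 21, no longer passed there, a design of 2 against 8 samples. Leaving out samples gave 0.57 to 1.24 for Uck2 over Uck1 in AK over NS, -0.88 to -0.47 in cSCC over NS and -1.89 to -1.22 in cSCC over AK, and 0.68 to 1.12 for Tk1 over Tk2 in AK over NS. Causes of these changes were not tested. Library depth limits Upp1 in NS, Cda and Tymp.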
